A study of Mus musculus with 2 samples.

Results

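Serglycin, the enzymes that make and break hyaluronan, and the proteoglycans that fill the space around cells were examined in mouse myotubes carrying a constitutively active estrogen receptor. The 10 genes were listed by name: Srgn, Has1, Has2, Has3, Hyal1, Hyal2, Cd44, Vcan, Dcn and Bgn. A gene was read through probe sets that the platform annotation assigns to it alone. This gave 1 probe set each for 9 of the 10 genes, out of 19938 genes so named in the series. Hyal1 had only 2 probe sets, both shared with Naa80, and has no value here.

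The cells were C2C12, an established line of mouse myoblasts whose cells fuse into multinucleated myotubes when serum is reduced. Both cultures were grown in 10% fetal bovine serum until confluent and then kept in 2% horse serum for 7 days. Virus was added at a multiplicity of infection of 30, and RNA was taken after 48 h of infection. The Ad-caERα culture received an adenovirus with a constitutively active estrogen receptor α. The Ad-DsRed control culture received an adenovirus with DsRed, a red fluorescent protein. The labels name no promoter for either vector, no species for the receptor, no ligand and no clone of the line. Each vector has 1 array, so no difference below has a replicate check and no p-value can be given.

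A proteoglycan is a core protein that carries long sulfated sugar chains, the glycosaminoglycans. Serglycin is the core protein of secretory granules, best known from blood cells, where its chains hold positively charged proteases and chemokines. Hyaluronan is a glycosaminoglycan without a core protein, which the Has enzymes extrude through the plasma membrane and hyaluronidases cut. Cells bind it through CD44, and versican links it to other matrix proteins. Decorin and biglycan are small leucine-rich proteoglycans that bind collagen and growth factors such as TGF-β.

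The 250 bases before each listed start of Srgn are shown because Srgn had the largest difference of the 9 genes. The same stretch of Has1 is shown as a member with little difference. The windows of Hyal1, Hyal2, Cd44, Vcan and Bgn, not shown, have no match to the letters marked here. The sequences are from RefSeq, build GRCm38.p6, minus strand, printed 5′ to 3′. Capitals mark matches, on either strand, to a single arm of the estrogen response element (GGTCA) or to a half-site of the cyclic AMP response element (TGACG).
Srgn, upstream start, chr10:62527446-62527695: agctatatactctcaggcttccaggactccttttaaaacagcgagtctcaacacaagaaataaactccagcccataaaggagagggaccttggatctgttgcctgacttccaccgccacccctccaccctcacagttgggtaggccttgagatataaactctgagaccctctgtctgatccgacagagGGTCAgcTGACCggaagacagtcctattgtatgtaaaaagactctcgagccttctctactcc
Srgn, downstream start, chr10:62507758-62508007: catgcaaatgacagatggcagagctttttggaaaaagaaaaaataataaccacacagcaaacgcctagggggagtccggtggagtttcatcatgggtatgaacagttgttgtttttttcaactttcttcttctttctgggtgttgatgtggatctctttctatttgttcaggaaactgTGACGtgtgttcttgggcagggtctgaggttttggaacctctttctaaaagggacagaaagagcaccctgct
Has1, chr17:17855189-17855438: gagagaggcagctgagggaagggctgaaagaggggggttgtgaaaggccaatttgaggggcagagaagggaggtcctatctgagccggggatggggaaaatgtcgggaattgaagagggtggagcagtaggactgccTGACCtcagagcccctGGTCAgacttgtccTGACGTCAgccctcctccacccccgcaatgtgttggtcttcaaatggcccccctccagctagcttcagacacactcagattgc
The whole estrogen response element, which is GGTCA, any 3 bases and TGACC, was in none of the 8 windows of 7 members: Srgn, Has1, Hyal1, Hyal2, Cd44, Vcan and Bgn. Has2, Has3 and Dcn were not analysed here for motifs. The element is in 0.0639% of all 32851 windows. The upstream Srgn window has 2 arms of the element, 62 to 58 and 55 to 51 bases before the start. They face each other across 2 bases, where the whole element has 3. GGTCA, any 2 bases and TGACC was looked for after the sequence had been seen, and 0.0731% of all windows hold it. A single arm is common, at 35.2% of all windows. The Has1 window also has 2 arms, 113 to 109 and 97 to 93 bases before the start. TGACG is in the downstream Srgn window, 72 to 68 bases before the start. In the Has1 window it is matched on both strands, 83 to 79 and 80 to 76 bases before the start. These 2 half-sites overlap and together read TGACGTCA. A single half-site is in 2 of the 8 member windows and in 17.8% of all windows. TGACGTCA was not counted over all windows. The AP-1 site TGANTCA, found in 6.75% of all windows, was in none of the 8. These are matches of letters, and binding was not measured.

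Values are log2 signals per probe set, on which a difference of 1 is 2-fold. A floor of 5.11 was set from 1210 probe sets for odorant and vomeronasal receptors, taken as silent in muscle, and a gene above it on either array was called measured. By this rule 8 of the 9 genes were measured, and 13554 of all 19938 genes. The receptor genes were not counted as measured. As yardsticks of spread, the SD of the difference between arrays was 0.12 across 38 genes of ribosomal proteins. Between probe sets of the same gene it had an SD of 0.13, from 770 genes. The SD was larger over the receptor probe sets, at 0.22, and over all measured genes, at 0.27. Esr1, which encodes estrogen receptor α, was at 8.44 in Ad-caERα and 7.38 in Ad-DsRed, a 2.08-fold difference. Its probe set may read both the cell's own and the introduced transcript. All 16 skeletal muscle markers were measured on these arrays, among them Des at 13.00 in Ad-caERα and 12.78 in Ad-DsRed. The median difference of the 16 was -0.03, with 6 above 0 and 10 below. They ran from Ttn, with a difference of -0.42, to Mb, with 0.87, or 1.82-fold higher in Ad-caERα.

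Of the 8 measured members, Srgn and Has2 were at least 2-fold higher with the active receptor, and 0 were as much lower. Over all measured genes 0.590% were that much higher and 0.0959% that much lower. The list was chosen by name and by the Srgn difference between these same arrays, which was known beforehand, so nothing is read from its count beside those shares. The other 6 measured members lay between -0.25 and 0.20. Over the 8 members 5 were above 0, the median was 0.13, and the median over all measured genes was 0.0017.

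The log2 signal of Srgn was 10.50 in Ad-caERα and 7.30 in Ad-DsRed. Both values are well above the floor, so the gene was also measured in the control culture. The difference was 3.21, or 9.25-fold, and ranked 3rd from the highest among the measured genes. In RNA from a whole culture, more cells that express the gene and more RNA per cell cannot be told apart.

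Among the hyaluronan synthases, Has2 was past 2-fold, Has1 was not, and Has3 was not measured; whether Has2 and Has1 differ in this could not be tested with 1 array per vector. Has2, the main synthase of many mesenchymal cells, was at 9.66 in Ad-caERα and 8.38 in Ad-DsRed. This is a difference of 1.28, or 2.43-fold, the 50th highest. Has1 was at 8.15 in Ad-caERα and 7.97 in Ad-DsRed, a difference of 0.19 that 37.6% of measured genes matched or exceeded in size. Has3 lay below the floor on both arrays, at 3.86 in Ad-caERα and 3.95 in Ad-DsRed, and no fold is given for it. The isoforms' signals come from different probes, so they do not show which synthase is the more abundant.

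**Figure D1:**
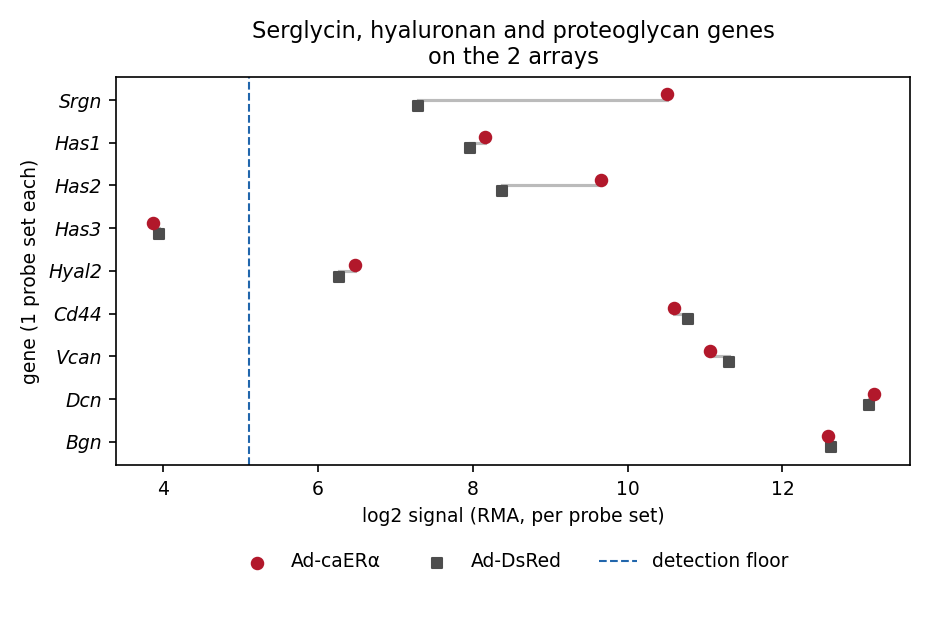
Log2 signal (x axis) of the 9 genes with a probe set of their own (y axis), with the Ad-caERα array as red circles and the Ad-DsRed array as grey squares, 1 array each. The dashed line is the floor of 5.11; the long grey bars of Srgn (10.50 and 7.30) and Has2 (9.66 and 8.38) stand out, and points should be compared along a row only, since each row has other probes.

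Hyal2, a hyaluronidase anchored to the cell surface that cuts long chains into shorter ones, was at 6.47 in Ad-caERα and 6.27 in Ad-DsRed. Its difference was 0.20, a size that 33.2% of measured genes reached. Cd44, the principal hyaluronan receptor, was at 10.60 in Ad-caERα and 10.78 in Ad-DsRed, a difference of -0.18. Hyal2 therefore lay slightly on the higher side and Cd44 slightly on the lower side, and neither came near 2-fold.

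Vcan, which encodes versican, had the lowest difference of the measured members. Its signal was 11.06 in Ad-caERα and 11.31 in Ad-DsRed, a difference of -0.25 that 23.7% of measured genes matched or exceeded in size. Dcn, which encodes decorin, was at 13.18 in Ad-caERα and 13.11 in Ad-DsRed. Bgn, which encodes biglycan, was at 12.59 in Ad-caERα and 12.63 in Ad-DsRed. The differences of 0.06 for Dcn and -0.04 for Bgn were smaller than each of the SDs given as yardsticks. The highest signal on either array was 14.16, so both genes lie near the top of the scale.

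**Figure D2:**
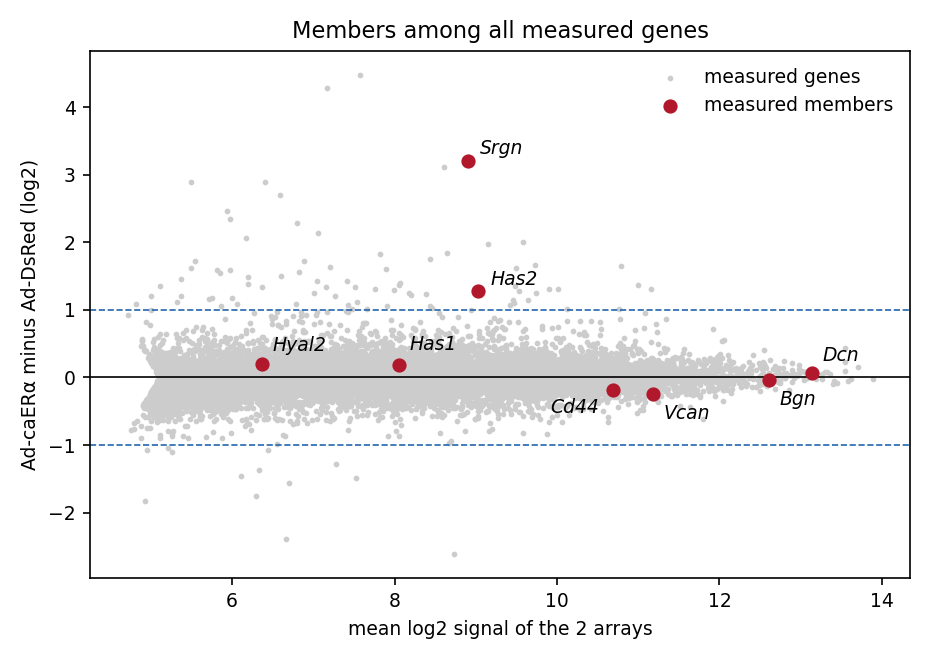
Difference between the arrays (Ad-caERα minus Ad-DsRed, log2, y axis) against the mean log2 signal (x axis) for the 13554 measured genes (grey), with the 8 measured members in red. Srgn (3.21) and Has2 (1.28) lie above the upper dashed line, which marks 2-fold, and the other 6 lie inside the cloud of grey points.

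The genes whose pair of values lay nearest to that of Srgn, by the distance between the pairs over the 2 arrays, were Tmem86a, Lpl and Camk2b. Tmem86a, a lysoplasmalogenase, was at 10.18 in Ad-caERα and 7.05 in Ad-DsRed, at a distance of 0.41. Lpl, which encodes lipoprotein lipase, was at 10.14 in Ad-caERα and 8.16 in Ad-DsRed, at a distance of 0.94. Camk2b, a subunit of calcium and calmodulin-dependent kinase II, was at 9.57 in Ad-caERα and 7.73 in Ad-DsRed, at a distance of 1.03. The differences were 3.12 for Tmem86a, 1.98 for Lpl and 1.84 for Camk2b, against 3.21 for Srgn. Of these genes, only Tmem86a had a difference close to that of Srgn. With 2 arrays, nearness describes the pair of levels and nothing more.

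Serglycin is known for the granule proteins it stores. Over the series 13554 of 19938 genes were measured, and 15 of the 20 listed cargo genes were below the floor on both arrays. They include the granzymes Gzma (3.42 in Ad-caERα and 3.32 in Ad-DsRed) and Gzmb (3.91 on both), the mast cell carboxypeptidase Cpa3 and platelet factor 4, Pf4. The 5 measured cargo genes did not share the Srgn difference. Hdc, at 8.33 in Ad-caERα and 8.14 in Ad-DsRed, was the highest, and the other 4 were below 0. It encodes the enzyme that makes histamine and is not itself a stored granule protein. Ccl5, a chemokine that interferon also induces, was the lowest, at 6.05 in Ad-caERα and 6.62 in Ad-DsRed, and Prf1, the pore-forming perforin, followed with a difference of -0.27. The median over the 5 was -0.22, the value of Prg3, which was under the floor in Ad-caERα. It was -0.12 when signals under the floor were set to it and -0.14 after loess correction. Without a floor the median over all 20 was -0.08.

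**Figure D3:**
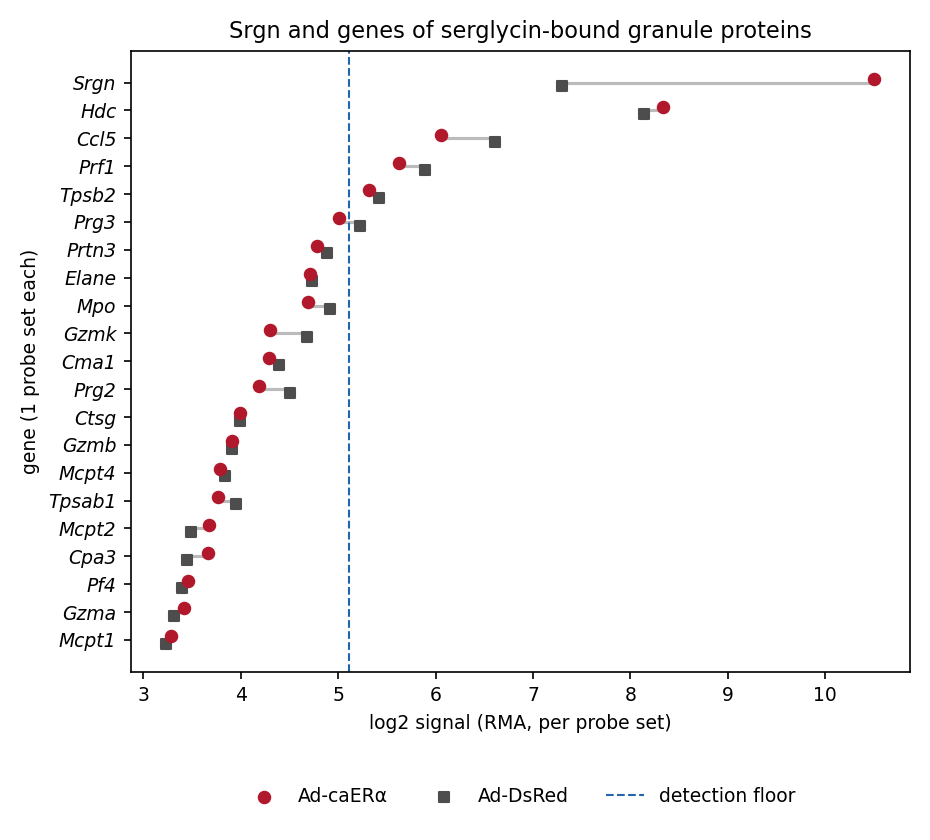
Log2 signal (x axis) of Srgn and the 20 listed cargo genes (y axis), with Ad-caERα as red circles and Ad-DsRed as grey squares, 1 array each. Hdc is listed as the enzyme that makes histamine and is not a stored granule protein. Only Srgn shows a wide gap (10.50 and 7.30), and 15 of the 20 cargo genes lie left of the floor of 5.11 on both arrays.

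Because blood and endothelial cells express Srgn, their markers were read beside it. Their counts of measured genes stand beside 13554 of 19938 over the series. Of 14 leukocyte markers with a probe set of their own, 5 were measured, and Ptprc, the pan-leukocyte antigen CD45, was below the floor at 4.23 in Ad-caERα and 4.50 in Ad-DsRed. The brightest was Cd14, at 6.82 in Ad-caERα and 6.53 in Ad-DsRed. The leukocyte list ran from 3.38 to 6.82 in Ad-caERα and from 3.47 to 6.53 in Ad-DsRed, and its summed linear signal was 486.1 in Ad-caERα and 463.5 in Ad-DsRed. Of 13 mast cell and platelet markers 6 were measured, with a median of -0.13, and the high-affinity IgE receptor genes Fcer1a and Ms4a2 were below the floor on both arrays. The brightest was Hdc, described above among the cargo genes. The summed linear signal of the 13 was 620.1 in Ad-caERα and 602.3 in Ad-DsRed, and without Hdc it was 297.6 in Ad-caERα and 320.5 in Ad-DsRed.

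Endothelial markers gave 6 measured genes of 12, with a median of -0.12. Sox18, a transcription factor of endothelial development, was at 7.75 in Ad-caERα and 6.03 in Ad-DsRed, or 3.29-fold higher. The angiopoietin receptor gene Tek, at 6.60 in Ad-caERα and 6.73 in Ad-DsRed, and Vwf, Egfl7, Esam and Cldn5 were above the floor on both arrays, with differences between -0.13 and 0.03. The other 6, among them Pecam1, Cdh5 and Kdr, were below it on both. The summed linear signal of the 12 was 637.6 in Ad-caERα and 509.9 in Ad-DsRed. Sox18 alone made it higher, since the other 11 summed to 422.7 in Ad-caERα and 444.6 in Ad-DsRed. The part of the endothelial markers in the Srgn difference was not tested. Fibroblast markers bear on Dcn, Bgn and Vcan, which fibroblasts express strongly. Of 11 such markers 9 were measured, 2 above and 7 below 0, with a median of -0.20, and their summed linear signal was 4068 in Ad-caERα and 4611 in Ad-DsRed. The 2 above 0 were Cd34, with a difference of 0.28, and Pi16, with 0.12. Among the 7 below 0, Col3a1, the brightest of the list on both arrays, had a difference of -0.15 and Col1a1 one of -0.0032. Pdgfrb had a difference of -0.39 and Pdgfra one of -0.28. Fap, under the floor in Ad-caERα, was at least 1.22-fold lower. In RNA from a whole culture of this myoblast line, a marker does not show which cells expressed it. The part of the fibroblast markers in the Vcan, Dcn, Bgn and Cd44 differences was not tested.

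Outside the members, 131 genes of 9 surrounding lists were measured, of which 1 was at least 2-fold higher and 1 at least 2-fold lower. Over all measured genes these shares were 0.590% and 0.0959%, so a count of 1 says nothing particular of the lists. In these lists 70 genes were above 0 and the median difference was 0.04. Over all measured genes 50.2% were above 0.

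Enzymes that build chondroitin and dermatan sulfate, the chains of serglycin, versican, decorin and biglycan, held the gene past 2-fold upwards. Chst11, a sulfotransferase that places sulfate on the galactosamine units of chondroitin, was at 10.03 in Ad-caERα and 8.92 in Ad-DsRed, or 2.15-fold higher. Of the 22 measured genes of this list 14 were above 0, with a median of 0.11. Next were B3gat3 (8.47 in Ad-caERα and 8.03 in Ad-DsRed) and Xylt2 (8.28 in Ad-caERα and 7.91 in Ad-DsRed). Both act on the short linker through which every such chain joins its core protein. The other linker transferases, named after their values were seen, were B3galt6 with a difference of 0.35, B4galt7 with 0.33 and Xylt1 with -0.02. The lowest were Chst15, which adds the further sulfate of the oversulfated chains known from mast cell granules (-0.29), Pxylp1, a phosphatase of the linker xylose (-0.29), and Csgalnact1, which starts chondroitin chains (-0.24).

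Heparan sulfate enzymes were split evenly, with 10 above and 10 below 0 and a median of 0.01. Extl1 was highest, at 7.22 in Ad-caERα and 6.52 in Ad-DsRed, followed by Extl2 with a difference of 0.30. The sulfotransferases Hs3st2 (-0.38) and Hs6st1 (-0.30) were lowest. Genes that supply the sugar nucleotides and the sulfate donor lay within a narrow band, from Bpnt2 at -0.18 to the hexokinase Hk2 at 0.31, with a median of 0.04 over 17 genes. Ugdh, which makes the glucuronate donor needed for hyaluronan, had a difference of -0.11. Of the 17 supply genes 0 reached 2-fold.

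Genes of lysosomal glycosaminoglycan breakdown were above 0 in 13 of 14 cases, by small amounts, with a median of 0.15 and 0 past 2-fold. Naglu, which cuts heparan sulfate, was at 7.77 in Ad-caERα and 7.31 in Ad-DsRed, followed by Galns (0.42), which removes sulfate from chondroitin and keratan sulfate, and the glucuronidase Gusb (0.39). Arsb, which acts on dermatan and chondroitin sulfate, was the member below 0, at -0.11. The ribosomal protein genes used as a yardstick also had a median above 0, of 0.10, with 31 of 38 above 0.

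Among proteins that bind or turn over hyaluronan 13 were measured, 9 of them above 0, with a median of 0.11 and 0 past 2-fold. Itih5, a heavy chain related to those that are linked to hyaluronan, was highest (0.36), followed by Layn, the hyaluronan receptor layilin, at 9.38 in Ad-caERα and 9.14 in Ad-DsRed. Hmmr, a hyaluronan-binding protein that also acts at the mitotic spindle, was lowest, at 7.84 in Ad-caERα and 8.20 in Ad-DsRed. Tnfaip6 and Hapln1, which stabilise hyaluronan in the matrix, and the receptor gene Lyve1 were below the floor on both arrays.

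The other matrix proteoglycans had 5 of 12 measured genes above 0 and a median of -0.06. Ogn, which encodes osteoglycin, a small leucine-rich proteoglycan like decorin, was highest, at 11.31 in Ad-caERα and 10.61 in Ad-DsRed, or 1.63-fold. Col18a1 (-0.45), the core of a basement membrane heparan sulfate proteoglycan, Prelp (-0.40) and Nyx (-0.29) were lowest. Acan, the cartilage relative of versican, was below the floor on both arrays. Cell surface proteoglycans had 4 of 12 above 0 and a median of -0.06, which was 0.0013 after centring the arrays on their medians. They ran from Nrp1 at -0.26 to Tgfbr3, the TGF-β co-receptor betaglycan, at 0.39.

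Proteases that cleave proteoglycans, and their inhibitors, were below 0 in 12 of 16 cases, with a median of -0.09. Mmp3, or stromelysin-1, held the gene past 2-fold downwards, at 6.78 in Ad-caERα and 8.27 in Ad-DsRed, 2.80-fold lower. Adamts15 had a difference of -0.63 and Adamts5 one of -0.36, and both belong to the enzymes known to cleave versican or aggrecan. The highest was Bmp1, at 0.18, which trims the propeptides of biglycan and collagens.

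**Figure D4:**
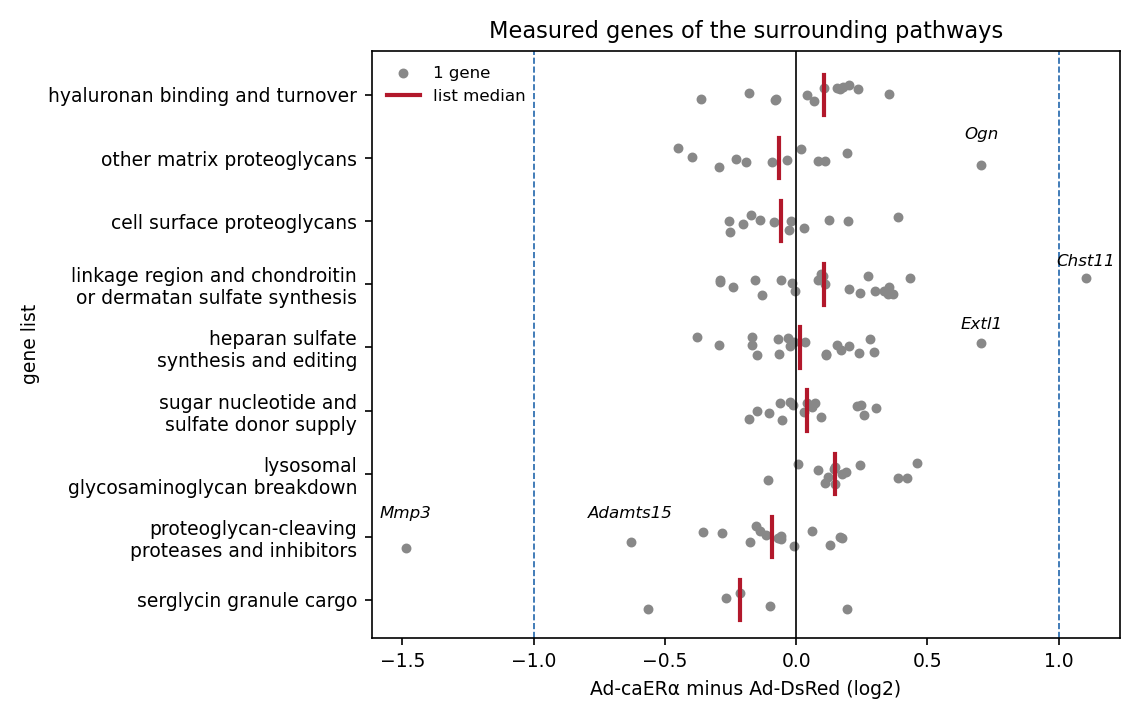
Difference between the arrays (Ad-caERα minus Ad-DsRed, log2, x axis) for each measured gene (grey points) of the 9 surrounding gene lists (y axis), with the list median as a red bar and dashed lines at 2-fold. Points are spread vertically for legibility; Chst11 (1.10) and Mmp3 (-1.49) are the genes past the dashed lines.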

How the data were processed

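The deposited table holds 35556 probe sets for 2 arrays as log2 signals, which the authors made with Affymetrix Expression Console and RMA, per the submitters' processing notes. RMA corrects background, quantile-normalizes arrays and summarizes probes, which compresses differences of weak signals and hides a change in total mRNA. Tool versions: not given in the sources used here. Precision is limited by 1 array per group. Detection calls and scan dates were not analysed here.

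Probe sets were named from the platform's annotation: 21789 name 1 gene, 1621 several (left unnamed) and 12146 none. The probe set with the highest mean stood for a gene. The floor was the 95th percentile of the higher value over the receptor probe sets. With 1 array per group, counts at 2-fold replaced a test. The members and lists were chosen with earlier results of these data known. Named genes are the members, Esr1, the 3 genes nearest to Srgn, and in each list up to 3 highest and 3 lowest measured genes and those past 2-fold; genes below the floor, other marker and linker enzyme genes, and chromosomal neighbours were named after their values were seen. The counting was tested on simulated data. Alternatives covered floor, normalization, probe set choice, list summary and, for the members only, fold threshold. The software was pandas 2.3.3, numpy 2.4.6 and, for loess, statsmodels 0.14.6, under Python 3.11.15.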

Additional observations from a re-analysis of the deposited data

How the results depend on the processing

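No paired analysis was possible because there is a single array per vector. No array could be left out either, and the spread between cultures is unknown. Of 126 values recalculated under 9 alternatives, 124 moved by less than the SD of 0.13 between probe sets of a gene or, for counts, by no more than 1.5 times. Most list medians are themselves smaller in size than this SD, so the rule says little about their stability. With the floor at the 99th percentile, the median of the other matrix proteoglycans was -0.19 against -0.06. That of the heparan sulfate enzymes was 0.11 against 0.01, and both counted as unmoved. At a 3-fold rule 1 member, Srgn, stayed past the threshold, against 2 at 2-fold and at 1.5-fold. Of all 13554 measured genes, 27 were at least 3-fold higher and 4 at least 3-fold lower. At 1.5-fold, 247 of them were higher and 120 lower. The counts of the surrounding lists were not recalculated at these rules. Chst11, at 2.15-fold, and Mmp3, at 2.80-fold, are both under 3-fold. Past 1.5-fold are also Ogn and Extl1, both 1.63-fold higher, and Adamts15, 1.55-fold lower. The median of the serglycin cargo genes was -0.0760 without a floor, which adds genes below it. The difference of Srgn ranged from 3.19 to 3.24 and that of Has2 from 1.26 to 1.31 under centring, loess correction and averaging of probe sets. Averaging could not move any member, since each has 1 probe set. Centring shifts every difference by the same small amount, the gap between array medians of 6.02 in Ad-caERα and 6.05 in Ad-DsRed. Values from both settings are among the 126, so the count of 124 says little about single members. Of 63 list medians recalculated, 1 changed sign, that of the cell surface proteoglycans, at 0.0013 after centring.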

Other observations

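The genes beside Srgn and Has2 on their chromosomes were read after the members' values had been seen, as the 3 protein-coding genes on each side taken from RefSeq's gene order. Beside Srgn, the nearest were Vps26a, a retromer subunit gene, at 9.98 in Ad-caERα and 10.03 in Ad-DsRed, and Kifbp, at 10.23 in Ad-caERα and 10.06 in Ad-DsRed. Of the other 4, the RNA helicase genes Ddx21 (-0.24) and Ddx50 (-0.06) and Supv3l1 (0.04) were measured on both arrays, and the hexokinase-like Hkdc1 lay under the floor in Ad-caERα, against 5.52 in Ad-DsRed. Beside Has2, Sntb1, which encodes the dystrophin-associated protein β1-syntrophin, was at 10.03 in Ad-caERα and 10.47 in Ad-DsRed. On the other side Slc22a22 was below the floor on both arrays. Zhx2 (-0.01), Derl1 (0.14), Mtbp (-0.11) and Mrpl13 (0.07) completed the set, and 0 of the 11 measured neighbours reached 2-fold. Over all measured genes 0.590% were at least 2-fold higher and 0.0959% at least 2-fold lower, so a count of 0 is near that background.

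Exactly equal values on both arrays were found for 855 probe sets, Gzmb, Ctsg and Lyve1 among them. They made up 5.10% of the 12590 probe sets below the floor and 0.927% of the 22966 above it.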
